A study of Homo sapiens with 66 samples.

Results

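The parental DLD-1 line was compared with and without auxin, as its libraries are labelled, to see which transcripts differ when no protein can be degraded through a tag. DLD-1 is a human colorectal cancer cell line, labelled original here, from which the degron lines of the study were derived, and it carries neither an auxin-inducible degron (AID) nor the TIR1 ligase that recognises one. The comparison holds 6 of the 66 samples of the series: 3 libraries labelled as treated with auxin for 2 h and 3 labelled NA 2 h. The label does not spell out NA. It was read as no treatment, and these 3 are called untreated, or labelled untreated, below. All 6 were total RNA libraries depleted of ribosomal RNA. The treatment protocol gives 1 mM auxin for the tagged lines and states no separate dose for the parental cells. Per the study's methods the 3 replicates are independent biological ones, and the labels themselves give only replicate numbers.

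The names of the 2 groups are in conflict between the sources. The file labels are used throughout, and Supplementary Data 2 of the study names the treatments of the parental cells the other way round. Each direction below is therefore given for "the libraries labelled auxin" against "the libraries labelled untreated". With the other naming, each fold change of the parental cells would have the opposite sign and the same size, error and p-value.

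Auxin is indole-3-acetic acid, a plant hormone and a natural indole, and indoles are among the known ligands of the aryl hydrocarbon receptor (AHR). AHR is a ligand-activated transcription factor that waits in the cytoplasm in a complex with HSP90 and the co-chaperone p23 (PTGES3). After binding a ligand it enters the nucleus, pairs with ARNT and binds DNA at xenobiotic response elements, whose core is GCGTG. Its best known targets are the cytochrome P450 genes CYP1A1, CYP1A2 and CYP1B1, TIPARP, a mono-ADP-ribosyltransferase that dampens the receptor, and AHRR, a repressor that competes for ARNT. In the intestinal epithelium the pathway senses compounds from food and bacteria.

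Totals in the 6 libraries ran from 28373719 counts, in the library labelled auxin replicate 3, to 41805610. Pairs of libraries correlated across genes between 0.994 and 0.996 within a group and between 0.993 and 0.997 between groups (Pearson r over genes, which are not independent replicates, of log2 CPM, the count scaled to a library's normalised total). Most markers of colorectal epithelium were expressed: KRT8 lay between 4521 and 4933 CPM and EPCAM between 467 and 486 CPM. KRT20 lay between 154 and 172 CPM, CDX2 between 130 and 181 CPM and VIL1 between 15.7 and 21.0 CPM. Of the 10 markers 8 passed the filter on low counts. CDX1 had at most 3 counts in any of the 6 libraries and LGALS4 at most 11. The summed level of the 10 markers was 10062 to 10808 CPM in the libraries labelled auxin and 10098 to 10729 CPM in those labelled untreated. Fibroblast markers summed to at most 1.44 CPM, with COL3A1, DCN and LUM at 0, leukocyte markers to at most 5.98 CPM, and endothelial markers to at most 5.73 CPM, with KDR at 0.

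Across 17812 genes tested with edgeR's quasi-likelihood test, 14 were called, all lower in the libraries labelled auxin. A gene was called at a Benjamini-Hochberg adjusted p under 0.05 and a difference of at least 1.3-fold either way, and the 14 calls are 0.0786% of the genes tested. The called genes are the AHR targets CYP1A1, TIPARP and CYP1B1 with CYP1B1-AS1, the neighbours EDC3 and CLK3 of CYP1A1, and CDX2, CDKN1B, PPP1R15A, NEDD9, DENND3, OTUB2, MEGF6 and C15orf62. No gene was called higher by this edgeR fit or by DESeq2 on the same genes, although 184 genes were higher at an unadjusted p under 0.05 by edgeR. Without the filter on low counts edgeR called 3 genes higher: FOS, SNORA23 and ENSG00000280717. With a term for the replicate number it called 75 genes lower, the 14 among them, and 4 higher, with FOS and EGR1 among the 4. In that direction the groups' values did not overlap for 652 genes.

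**Figure D1:**
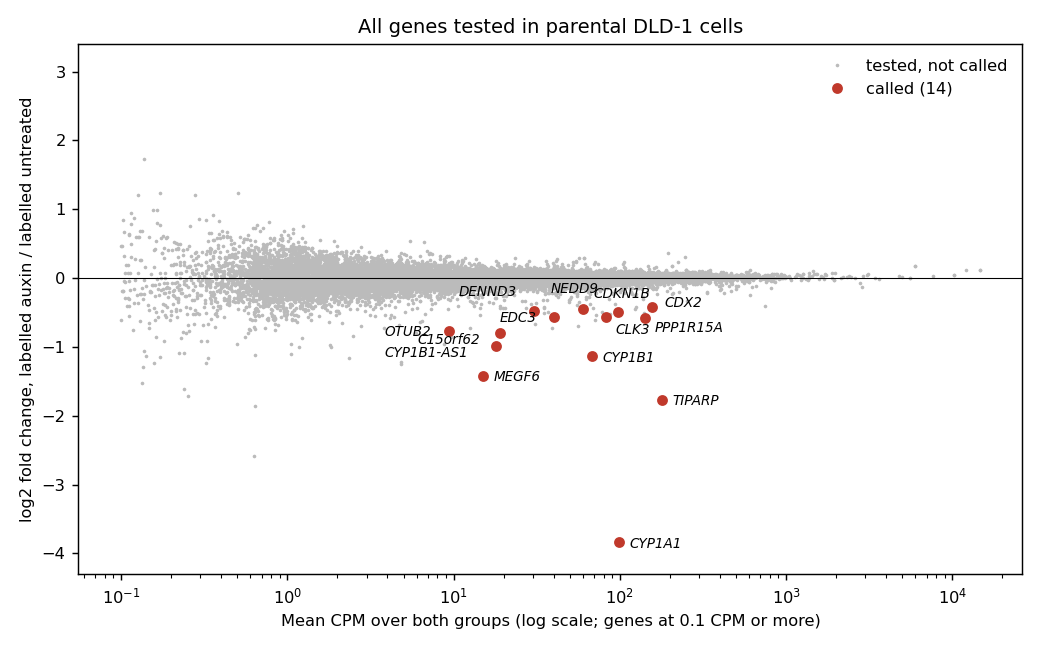
Each dot is a gene tested in parental DLD-1 cells, by its mean CPM over both groups (horizontal, log scale) and its log2 fold change between the libraries labelled auxin and labelled untreated (vertical). Genes under 0.1 CPM are not drawn. The 14 called genes, in red, all lie below 0, with CYP1A1 lowest at -3.84 and TIPARP next among them at -1.77.

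Promoters of called genes are shown because the core of the AHR element can be read in them. RefSeq promoter sequences of 300 bases (250 before and 50 after the start, build GRCh38.p14) matched 12 of the 14 called genes, some with several starts. For CYP1B1 and DENND3 no promoter was available. The letters GCGTG were searched on both strands, with no other motif. They were found in at least 1 promoter of 11 of these 12 genes, and in 12 of their 17 promoters (70.6%). The letters are held by 36.5% of all 35116 promoters listed, and of the 16418 promoters of genes tested here 47.7%. Both shares count promoters, so they stand beside the 12 of 17 and not beside the 11 of 12 genes. A match is a description of the letters in this window and no evidence that AHR binds there. The promoters printed are those of CYP1A1, TIPARP, MEGF6 and EDC3, and each window printed holds a match. Windows of CLK3 and CYP1B1-AS1, which also hold matches, and of NEDD9, which hold none, are not printed. The sequences run 5′ to 3′ on the strand of the gene, with GCGTG or its reverse complement CACGC in capitals.
CYP1A1, chr15:74725479-74725778, minus strand: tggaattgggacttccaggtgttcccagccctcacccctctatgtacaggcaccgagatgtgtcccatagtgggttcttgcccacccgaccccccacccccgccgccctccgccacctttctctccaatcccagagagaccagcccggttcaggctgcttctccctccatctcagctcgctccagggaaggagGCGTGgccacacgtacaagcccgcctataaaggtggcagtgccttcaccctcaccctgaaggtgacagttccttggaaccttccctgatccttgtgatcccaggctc
TIPARP, chr3:156674340-156674639, plus strand: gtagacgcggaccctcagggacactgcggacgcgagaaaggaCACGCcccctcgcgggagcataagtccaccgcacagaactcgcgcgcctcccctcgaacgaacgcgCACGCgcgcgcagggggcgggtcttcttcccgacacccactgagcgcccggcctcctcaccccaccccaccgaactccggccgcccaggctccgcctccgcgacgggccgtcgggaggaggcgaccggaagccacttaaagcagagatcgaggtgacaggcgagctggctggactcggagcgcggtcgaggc
MEGF6, chr1:3611459-3611758, minus strand: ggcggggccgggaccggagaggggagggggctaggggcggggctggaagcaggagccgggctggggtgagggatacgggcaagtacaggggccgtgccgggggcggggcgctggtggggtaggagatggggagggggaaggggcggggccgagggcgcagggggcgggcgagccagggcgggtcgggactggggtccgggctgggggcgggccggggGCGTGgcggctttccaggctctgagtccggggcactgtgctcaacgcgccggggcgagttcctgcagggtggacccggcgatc
EDC3, chr15:74695975-74696274, minus strand: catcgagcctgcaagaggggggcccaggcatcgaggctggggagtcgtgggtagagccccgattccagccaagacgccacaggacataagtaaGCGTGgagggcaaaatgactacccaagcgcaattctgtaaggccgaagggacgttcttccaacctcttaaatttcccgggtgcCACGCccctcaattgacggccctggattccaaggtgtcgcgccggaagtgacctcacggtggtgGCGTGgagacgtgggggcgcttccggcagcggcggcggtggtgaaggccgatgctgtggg
The CYP1A1 window holds 1 match, beginning 57 bases before the start. The TIPARP window printed holds 2, both on the opposite strand, and the other 2 TIPARP promoters in the table hold none. MEGF6 holds 1. The EDC3 window holds 3, of which 2 are on the strand of the gene.

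CYP1A1 had the largest fold change among the called genes. CYP1A1 (ENSG00000140465; chr15:74719542-74725536, minus strand, GRCh38) encodes a monooxygenase that oxidises aromatic hydrocarbons and is the standard readout of AHR activity. Its level was 14.5, 14.2 and 9.54 CPM in the libraries labelled auxin and 201, 181 and 169 CPM in those labelled untreated. The groups were far apart beside the spread within them. In such bulk libraries fewer expressing cells and less RNA per cell cannot be told apart.

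CYP1A1 was 14.3-fold lower in the libraries labelled auxin (log2 fold change -3.84, SE 0.13, edgeR adjusted p = 8.22e-07, n = 3 and 3). TIPARP (chr3:156673235-156706770, plus strand) was at 84.7, 88.9 and 69.4 CPM in the libraries labelled auxin. In those labelled untreated it was at 263, 281 and 284 CPM, and the groups were well apart. The difference was 3.4-fold lower with the auxin label (log2 fold change -1.77, SE 0.08, edgeR adjusted p = 8.27e-06).

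CYP1B1 (chr2:38066973-38109902, minus strand), which metabolises oestrogens and polycyclic hydrocarbons, was at 41.9, 45.6 and 39.8 CPM in the libraries labelled auxin. It was at 100.3, 96.9 and 82.9 CPM in those labelled untreated, 2.20-fold apart (log2 fold change -1.14, SE 0.08, edgeR adjusted p = 0.000276). CYP1B1-AS1, an RNA from the opposite strand whose gene overlaps CYP1B1, differed by -0.99 (SE 0.08), with 12.0, 13.5 and 10.7 CPM against 23.6, 24.6 and 23.9 CPM. In the files of this line reads over overlapping genes can be counted for both, so the call on CYP1B1-AS1 cannot be told apart from that on CYP1B1.

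**Figure D2:**
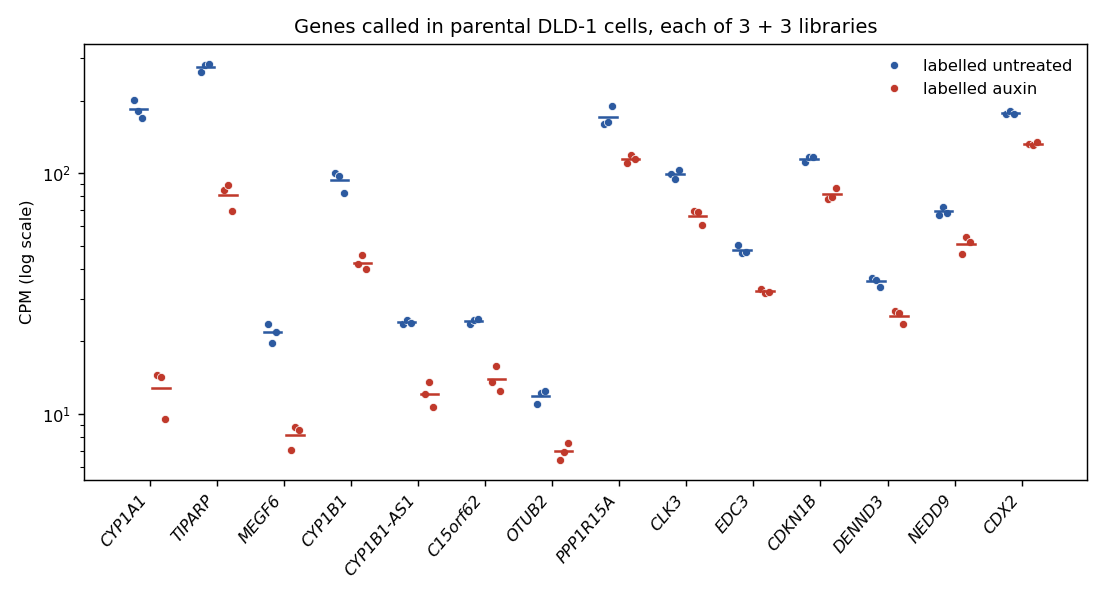
CPM on a log scale of the 14 called genes in each of the 3 libraries labelled untreated (blue) and the 3 labelled auxin (red); dots are libraries and bars are group means. For each gene the red dots lie below the blue ones, by 14.3-fold in mean for CYP1A1 and by 1.34-fold for CDX2.

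Further calls lay outside the AHR list. MEGF6, a protein with repeats like those of epidermal growth factor, was at 7.04, 8.80 and 8.59 CPM in the libraries labelled auxin and at 23.7, 19.7 and 21.9 CPM in those labelled untreated. Its 2.68-fold difference (log2 fold change -1.42, SE 0.10, edgeR adjusted p = 0.000351) was larger than that of CYP1B1. C15orf62 was at 13.6, 15.8 and 12.4 CPM against 23.6, 24.5 and 24.8 CPM, a log2 fold change of -0.80 (SE 0.09). OTUB2, a deubiquitinating enzyme, was at 6.42, 6.96 and 7.57 CPM against 11.0, 12.2 and 12.4 CPM, a log2 fold change of -0.77 (SE 0.09).

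Regulators of cell identity and of growth stood among the smallest differences. CDX2, the homeobox factor that sets intestinal identity, was at 132, 130.4 and 135 CPM in the libraries labelled auxin. It was at 177, 181 and 176 CPM in those labelled untreated, a 1.34-fold difference that was small and very even (log2 fold change -0.42, SE 0.04, edgeR adjusted p = 0.00202). The other 7 epithelial markers tested were not called, and their log2 fold changes ran from -0.13 for VIL1 to 0.05 for KRT19.

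CDKN1B encodes p27, an inhibitor of cyclin-dependent kinases. It was at 78.0, 79.8 and 86.9 CPM with the auxin label and at 111, 116 and 117 CPM without it, 1.41-fold apart (edgeR adjusted p = 0.0048). NEDD9, a scaffold protein of focal adhesions, was at 46.3, 54.0 and 51.7 CPM against 67.2, 72.4 and 68.4 CPM (log2 fold change -0.45, SE 0.06). DENND3, an exchange factor for a Rab GTPase of vesicle traffic, was at 26.8, 26.2 and 23.6 CPM against 36.7, 36.1 and 33.5 CPM (log2 fold change -0.47, SE 0.07). The groups did not overlap for any of these genes.

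The calls were then repeated with fewer libraries. With each of the 6 libraries left out in turn, 8 genes were called each time: CYP1A1, TIPARP, CYP1B1, MEGF6, CYP1B1-AS1, CDX2, EDC3 and CLK3. The other 6 (PPP1R15A, OTUB2, DENND3, CDKN1B, NEDD9 and C15orf62) were lost at least once, although their log2 fold changes stayed between -0.90 and -0.39 over all 36 such values. The count was 9 without the library labelled auxin replicate 2, 8 without untreated replicate 2 and 22 without untreated replicate 1.

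EDC3 and CLK3 lie next to CYP1A1 on chromosome 15. EDC3 encodes an activator of mRNA decapping, and CLK3 a kinase that phosphorylates SR splicing factors. EDC3 was at 33.1, 31.8 and 32.1 CPM in the libraries labelled auxin and at 50.3, 46.4 and 46.9 CPM in those labelled untreated (log2 fold change -0.57, SE 0.05, edgeR adjusted p = 0.00253). CLK3 was at 69.3, 69.1 and 61 CPM against 99.3, 94.2 and 103 CPM (log2 fold change -0.57, SE 0.06, edgeR adjusted p = 0.0048). EDC3 runs on the strand of CYP1A1 from 29.2 to 95 kb downstream of its start, and CLK3 on the opposite strand from 80.1 to 127 kb. The bodies of EDC3 and CLK3 overlap, so reads could be counted for both here.

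Of 15 other genes tested within 250 kb of CYP1A1, 10 were below 0, EDC3 and CLK3 were called, and the groups did not overlap, with the auxin label lower, for 4. That pattern held for 710 of all genes tested, or 3.99%, and the opposite one for 3.66%. The other 2 of the 4 lie upstream. CYP1A2, a cytochrome of the liver that is read away from CYP1A1, begins 23.3 kb upstream and was low: 0.21, 0.40 and 0.21 CPM against 0.74, 1.2 and 1.1 CPM. Its log2 fold change was -1.85 (SE 0.32), and its edgeR adjusted p of 0.134 missed the threshold. CYP1A2 was called by DESeq2 (log2 fold change -1.89), without the filter on low counts and without untreated replicate 1. CSK, a kinase that restrains SRC, lies 56.5 to 77.7 kb upstream and was at 42.7, 45.4 and 47.5 CPM against 56.1, 54.2 and 56.8 CPM (log2 fold change -0.30, SE 0.05, edgeR adjusted p = 0.154).

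Farther out no gene was called. Upstream, SCAMP5 was the only neighbour whose groups did not overlap with the auxin label higher, at 0.24 (SE 0.14), and RPP25 was at -0.31 (SE 0.19). The log2 fold change was 0.05 (SE 0.05) for ULK3, -0.03 (SE 0.05) for SCAMP2 and 0.01 (SE 0.06) for COX5A, and 0.15 (SE 0.22) for ENSG00000261606. Downstream of CLK3, ARID3B was at -0.21 (SE 0.14) and UBL7-DT at -0.17 (SE 0.13). Around TIPARP, 4 of 5 tested neighbours were below 0 and 0 were called by edgeR, LEKR1 being lowest at -0.39 (SE 0.17, unadjusted p = 0.044). Around CYP1B1, ATL2 was at -0.02 (SE 0.05) and RMDN2 at 0.00 (SE 0.11).

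**Figure D3:**
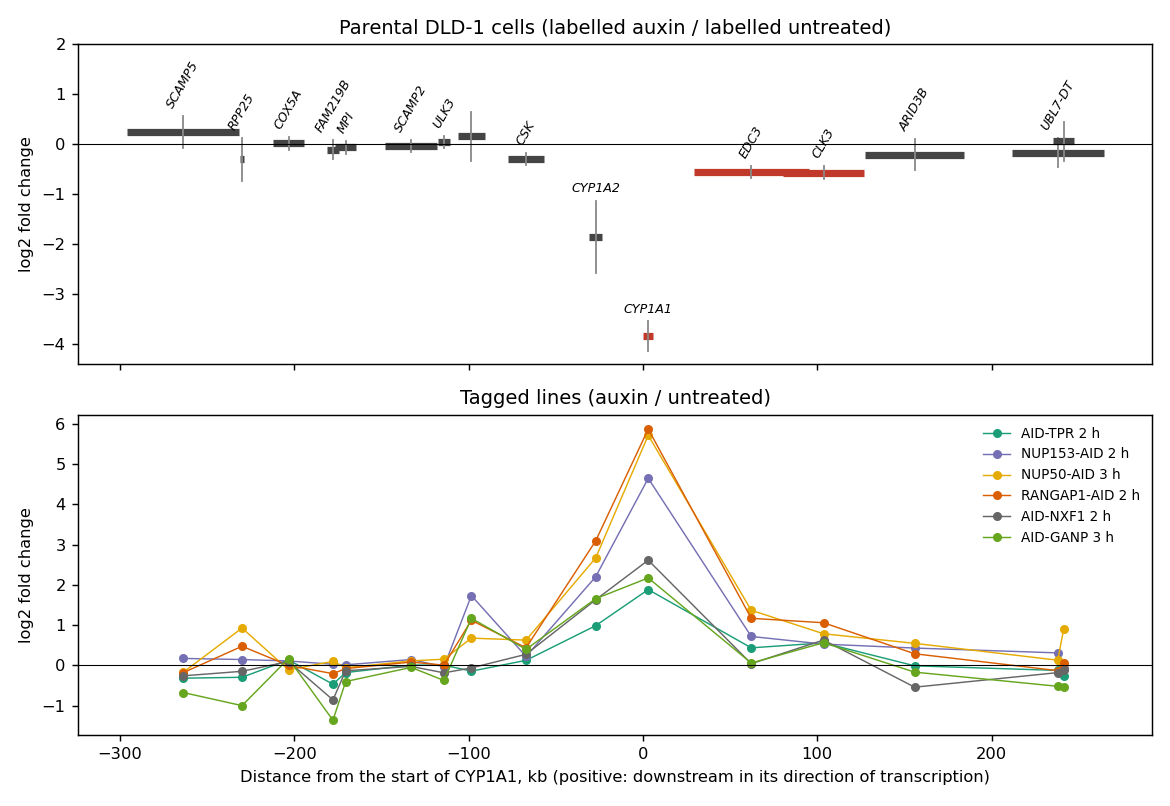
Log2 fold change of each tested gene within 250 kb of CYP1A1, by distance from its start in kb. Upper panel: parental DLD-1 cells, bars span gene bodies (red, called), with 95% intervals as thin lines; lower panel: auxin against untreated in 6 tagged lines, dots at the middle of each gene joined by lines. The differences are largest at CYP1A1 in both panels, and EDC3 and CLK3 lie below 0 in the upper panel and above 0 in the lower one.

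In the tagged lines the same neighbours lay on the other side of 0. EDC3 ran from 0.04 in AID-NXF1 to 1.37 in NUP50-AID cells, and CLK3 from 0.50 in the AID-TPR libraries labelled old to 1.06 in RANGAP1-AID cells. CYP1A2 ran from 0.99 in AID-TPR to 3.09 in RANGAP1-AID cells, all as log2 fold changes after 2 or 3 h of auxin against untreated cells of the line.

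Among AHR target genes the 3 calls were CYP1A1, TIPARP and CYP1B1, of 11 in the list. All 11 were below 0, with a median log2 fold change of -0.18 beside 0.00 over all genes tested. At an unadjusted p under 0.05, 7 of the 11 were lower, against 2.1% of all genes. AHRR was at 34.2, 35.7 and 35.1 CPM in the libraries labelled auxin and at 39.5, 40.1 and 39.1 CPM in those labelled untreated, apart but not called (log2 fold change -0.18, SE 0.05, edgeR adjusted p = 0.946).

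The detoxifying enzymes that AHR shares with other regulators showed little. NQO1, a quinone reductase, was at -0.07 (SE 0.05) and ALDH3A1, an aldehyde dehydrogenase, at -0.10 (SE 0.08). The glucuronosyltransferases UGT1A1 and UGT1A6, whose genes share exons, were at -0.12 (SE 0.06) and -0.14 (SE 0.07). NFE2L2, which encodes the factor NRF2, was at -0.27 (SE 0.08, unadjusted p = 0.0064), and SLC7A5, an amino acid transporter, at -0.14 (SE 0.06).

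The receptor and its partners were not called, and of all genes tested 0.0786% were. AHR itself was at 209, 246 and 251 CPM in the libraries labelled auxin and at 206, 235 and 246 CPM in those labelled untreated, so that replicate 1 was lowest in both groups. Its log2 fold change was 0.04 with a 95% interval from -0.14 to 0.22. ARNT was at 0.07 (SE 0.05), PTGES3 at -0.01 (SE 0.04) and HSP90AB1 at 0.07 (SE 0.04).

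**Figure D4:**
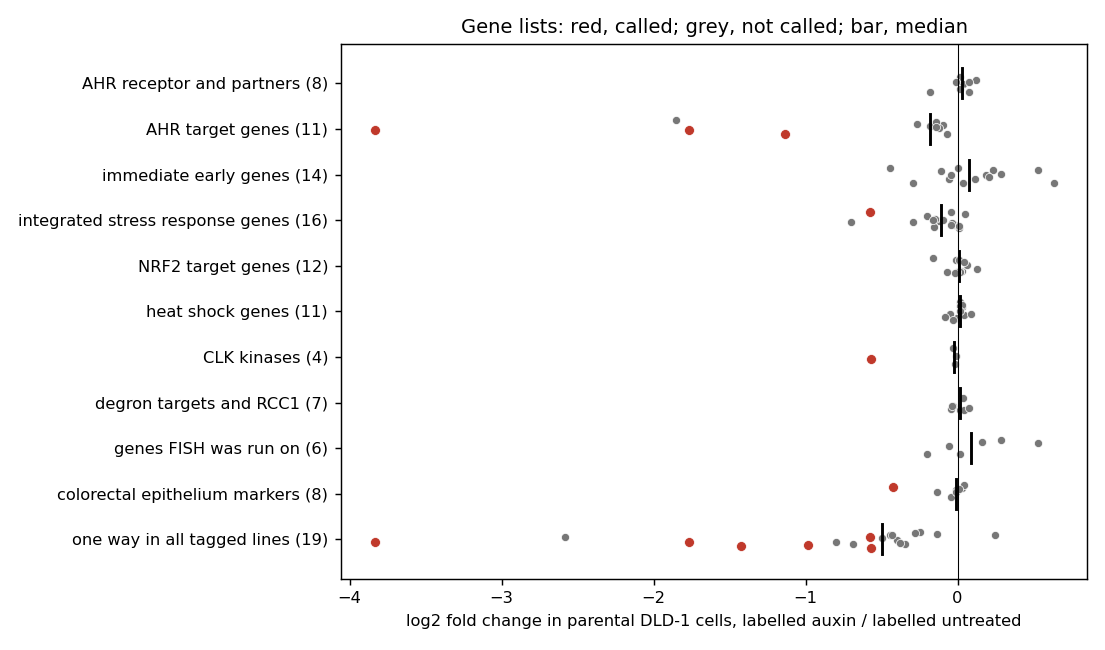
Log2 fold change in parental DLD-1 cells (libraries labelled auxin over labelled untreated) of each tested member of the gene lists, with the number of members in brackets; red dots are called genes, grey dots are not, and black bars are medians. AHR target genes reach -3.84, while heat shock genes stay between -0.08 and 0.09.

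The genes of the proteins tagged elsewhere in the study were not called. TPR was at 196, 198 and 193 CPM in the libraries labelled auxin and at 196, 207 and 197 CPM in the others. Its log2 fold change was -0.03, with a 95% interval from -0.12 to 0.06. NUP153 was at 0.01, NUP50 at -0.04, RANGAP1 at 0.05, NXF1 at -0.04 and MCM3AP, which encodes GANP, at 0.04, with SEs of 0.04 to 0.06. RCC1, the gene that carries TIR1 in the tagged lines, was at 0.07 (SE 0.04). None of these 7 genes was called, and none had an unadjusted p under 0.05. Of all genes tested 0.0786% were called, so 7 genes without a call do not stand apart.

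Few calls fell in the lists of stress and growth genes, and of all genes tested 0.0786% were called. At that share a short list without a call does not stand apart from other genes. PPP1R15A encodes GADD34, the subunit that directs phosphatase 1 to eIF2α. Of 16 integrated stress response genes it alone was called by the edgeR fit used throughout. It was at 110.5, 118 and 115 CPM in the libraries labelled auxin and at 159, 164 and 189 CPM in those labelled untreated (log2 fold change -0.57, SE 0.06, edgeR adjusted p = 0.00759). ATF4, the factor at the centre of the pathway, was at -0.02 (SE 0.08) and DDIT3, its proapoptotic target CHOP, at 0.01 (SE 0.13). PPP1R15B, the constitutive partner of phosphatase 1, was at -0.12 (SE 0.05). DDIT4 was the lowest of the 16 at -0.70 (SE 0.43), with overlapping groups. It was at 20.6, 42.9 and 65.5 CPM in the libraries labelled auxin and at 33.4, 63.3 and 112 CPM in those labelled untreated. With a term for the replicate number (log2 fold change -0.68) or without the filter on low counts (-0.70), edgeR called DDIT4 lower. The median of the 16 was -0.11.

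None of the immediate early genes was called by the edgeR fit used throughout, and EGR1 and FOS varied widely between replicates. EGR1 was at 43.3, 37.2 and 106 CPM in the libraries labelled auxin and at 25.6, 25 and 102 CPM in those labelled untreated, with replicate 3 highest in both. Its 95% interval ran from -0.91 to 1.49 around a log2 fold change of 0.29. FOS was at 7.17, 4.30 and 12.1 CPM against 4.35, 2.94 and 8.89 CPM, a log2 fold change of 0.53 (SE 0.41). Of the 14 genes 0 were called by that edgeR fit, 0 had an unadjusted p under 0.05 in it, and the median was 0.08. With a term for the replicate number, edgeR called FOS (log2 fold change 0.56) and EGR1 (0.42) higher and IER3 (-0.43) lower. Without the filter on low counts it called FOS higher and IER3 lower. The labels do not say what same-numbered libraries share. The interval of EGR1 leaves room for a change of over 2-fold upward.

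The 12 NRF2 target genes had a median of 0.01, and the lowest, SLC7A11, was at -0.16 (SE 0.08). HMOX1, which degrades haem, was at 0.13 (SE 0.19). The 11 heat shock genes tested ran from -0.08 for BAG3 to 0.09 for HSPB1, and HSPA8, a constitutive chaperone, was at 3686, 3266 and 2375 CPM against 3637, 3159 and 2279 CPM. Of these 23 genes none had an unadjusted p under 0.05, beside 2.1% of all genes tested lower and 1.03% higher. Among CLK kinases CLK3 alone was called, and CLK1, CLK2 and CLK4 were at -0.02 (SE 0.15), -0.01 (SE 0.08) and -0.03 (SE 0.13). Of the genes stained by RNA FISH in the study, GDF15 was at -0.20 (SE 0.36), FJX1 at 0.02 (SE 0.10), ASCL2 at 0.16 (SE 0.17) and HOXA13 at -0.06 (SE 0.04).

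The width of these intervals, from the fit without a term for the replicate number, shows how much could have gone unseen in that fit. Over the 15245 genes that averaged 50 counts or more, the median half-width of the 95% interval was 0.17 on the log2 scale, and for 80.3% of them the whole interval lay within 1.3-fold either way. In the same set 111 genes had an estimate at least 1.3-fold lower with the auxin label and 17 an estimate at least that much higher.

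Some larger differences missed the threshold. Among uncalled genes with a mean count of at least 50 and groups that did not overlap, the 5 largest that were lower were PRDM1, PROX1, TERT, LINC02029 and BMF. PROX1, a homeobox factor, was at 1.19, 1.29 and 1.90 CPM against 2.87, 3.66 and 3.13 CPM (log2 fold change -1.16, SE 0.19, edgeR adjusted p = 0.102). TERT, the catalytic subunit of telomerase, was at 1.24, 1.0 and 1.48 CPM against 2.44, 2.54 and 2.36 CPM (log2 fold change -1.0, SE 0.17, edgeR adjusted p = 0.105). DESeq2 called PROX1 and TERT, and without the filter on low counts edgeR called all 5. PRDM1, a transcriptional repressor, was at -1.25 (SE 0.31) and BMF, a proapoptotic BH3-only protein, at -0.96 (SE 0.23).

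Under the same limits on counts and overlap, the 5 largest that were higher were smaller in size: TRIM31 at 0.54 (SE 0.18), AATK at 0.47 (SE 0.16), SNORD55 at 0.40 (SE 0.12), ENSG00000280287 at 0.40 (SE 0.17) and FAM86FP at 0.39 (SE 0.18). TRIM31, a ubiquitin ligase, was at 2.17, 2.06 and 2.57 CPM with the auxin label and at 1.24, 1.74 and 1.70 CPM without it. Each of the 5 had an edgeR adjusted p of 1. TRIM31 lies opposite TRIM31-AS1, SNORD55 sits inside another gene and FAM86FP is a pseudogene of a family of near copies, so their counts can hold reads of other genes. At an unadjusted p under 0.05, 374 genes were lower and 184 higher, 2.1% and 1.03% of those tested.

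The level of CYP1A1 in the parental cells was set beside that in the tagged lines, each normalised within its own comparison and some counted differently by the authors. In untreated cells it was 67.5 ± 37.2 CPM in AID-TPR, 29.1 ± 24.4 in AID-GANP, 26.3 ± 18.2 in AID-NXF1, 10.6 ± 8.17 in NUP153-AID, 7.85 ± 8.01 in NUP50-AID, 2.70 ± 0.998 in the old AID-TPR and 2.59 ± 0.629 in RANGAP1-AID cells (SD, n = 3 each). After 2 or 3 h of auxin the means were 130 CPM in AID-GANP to 419 CPM in NUP50-AID cells. The parental libraries labelled auxin, at 12.7 ± 2.77 CPM, lay in the range of the untreated tagged cells. Those labelled untreated, at 184 ± 16.3 CPM, lay above each untreated mean and in the range of the auxin means. Many neighbours among the untreated means, such as AID-GANP and AID-NXF1, lay within each other's SD.

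TIPARP was at 81.0 ± 10.2 CPM in the parental libraries labelled auxin and at 276 ± 11.6 CPM in those labelled untreated. Its untreated means in the tagged lines ran from 52.5 CPM in RANGAP1-AID to 157 CPM in AID-TPR cells, and its auxin means from 185 to 394 CPM. As for CYP1A1, the parental libraries labelled untreated lay above all of the untreated means and within the auxin means. The same held for PPP1R15A, DENND3, NEDD9, CYP1B1, CYP1B1-AS1, EDC3 and CLK3. For OTUB2 (11.9 CPM) and C15orf62 (24.3 CPM) they lay above the highest auxin mean too (8.83 and 18.2 CPM). For CDX2, CDKN1B and MEGF6 they lay within the range of the untreated means.

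Within each tagged line CYP1A1 and TIPARP were called higher after 2 or 3 h of auxin, in 7 of 7 comparisons. The log2 fold change of CYP1A1 ran from 1.88 in AID-TPR to 6.68 in the AID-TPR libraries labelled old, and that of TIPARP from 0.75 in AID-NXF1 to 2.65 in the old AID-TPR libraries. CYP1B1, MEGF6 and CLK3 were above 0 in all 7 and called in 5. CDKN1B was above 0 in 5 of 7, at -0.35 in AID-NXF1 and -0.20 in AID-GANP cells. OTUB2 was above 0 in all 7 and called in 0 of them by edgeR, with the highest value of 0.85 in the old AID-TPR libraries.

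**Figure D5:**
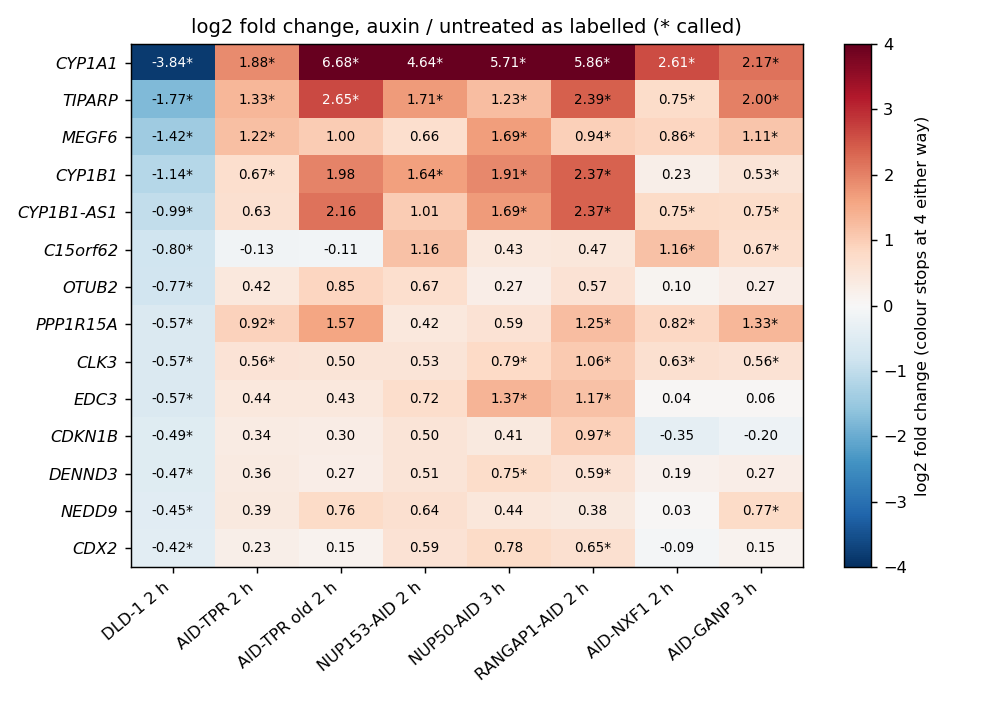
Log2 fold changes of the 14 genes called in parental DLD-1 cells (rows), in those cells and in 7 comparisons of tagged lines after 2 or 3 h of auxin (columns), as the files label them; colour gives direction and size, and asterisks mark calls. The parental column is negative throughout, from -3.84 to -0.42, and nearly all other cells are positive, except C15orf62 in both AID-TPR sets, CDKN1B in AID-NXF1 and AID-GANP, and CDX2 in AID-NXF1.

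The calls of the tagged lines that recur among the 14 were counted next. RANGAP1-AID cells had 106 calls (0.595% of genes tested), of which 11 were among the 14, or 10.4% of the line's calls and 78.6% of the parental ones. NUP50-AID cells had 40 calls (0.225%) and shared 8, or 20% and 57.1%. AID-TPR cells had 115 (0.646%) and shared 6, or 5.22% and 42.9%. The old AID-TPR libraries had 81 (0.455%) and shared 2, CYP1A1 and TIPARP. NUP153-AID cells had only 7 (0.0393%) and shared 3, CYP1A1, CYP1B1 and TIPARP.

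AID-NXF1 cells had 1978 calls (11.1%) and shared 7 of the 14, which is 0.354% of their own list. AID-GANP cells had 3419 (19.2%) and shared 9, or 0.263%. Each shared call was higher with auxin in the tagged line and lower with the auxin label in the parental cells.

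The genes that were higher in a tagged line were then read in the parental cells. All 37 genes called higher in NUP50-AID cells were below 0 there, with a median log2 fold change of -0.39. Of 86 called higher in RANGAP1-AID cells, 79 were below 0, with a median of -0.39. The 396 called higher in AID-NXF1 cells had a parental median of -0.01, with 208 below 0, and the 708 of AID-GANP cells had -0.03, with 418 below 0. Over all genes tested 49.7% were below 0.

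There were 19 genes with an unadjusted p under 0.05 and one direction in all 6 tagged lines, old AID-TPR libraries left out. Of these 17 were higher and 2, RASSF10 and BDNF, were lower with auxin. All 17 were below 0 in the parental comparison, against 49.7% of all genes tested. For 15 of them the groups did not overlap, with the auxin label lower, against 3.99% of all genes. The 6 called were CYP1A1, TIPARP, MEGF6, CYP1B1-AS1, PPP1R15A and CLK3, and of all genes 0.0786% were called. The median of the 19 was -0.50. STMND1, which has a stathmin domain, was at 0.26, 0.16 and 0.11 CPM against 1.39, 1.29 and 0.57 CPM (log2 fold change -2.58, SE 0.43, edgeR adjusted p = 0.105).

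ADGRF1, an adhesion G protein-coupled receptor, was at 73.1, 61.8 and 60.7 CPM with the auxin label and at 99.2, 92.7 and 84.4 CPM without it (log2 fold change -0.50, SE 0.08, edgeR adjusted p = 0.0991). DESeq2 called STMND1 and ADGRF1, and also ALDH1A3, HDAC2-AS2 and ENSG00000234424. ALDH1A3, which makes retinoic acid, was at -0.40 (SE 0.07) and HDAC2-AS2, an RNA antisense to HDAC2, at -0.80 (SE 0.12, edgeR adjusted p = 0.0588). ENSG00000234424 was at -0.69 (SE 0.11). BDNF was at 0.25 (SE 0.10), the only one of the 19 above 0.

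Whether the parental difference itself departed from that of a tagged line was tested by an interaction term in edgeR. Between parental and AID-TPR cells, 147 genes (0.825% of those tested) differed at an adjusted p under 0.05, and 12 of the 14 called genes were among them, NEDD9 and C15orf62 being the exceptions. For CYP1A1 the difference of log2 fold changes, parental minus AID-TPR, was -5.71 (SE 0.47, edgeR adjusted p = 3.11e-05). Between parental and AID-NXF1 cells 1729 genes differed (9.71%), and 12 of the 14 were among them, without CDKN1B and CDX2. The 14 were chosen for their difference in these same parental libraries, so their share in both tests was partly fixed beforehand.

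With the treatment names of Supplementary Data 2 given to the parental libraries, 0 of the 14 genes differed from AID-TPR cells at an adjusted p under 0.05 in the same edgeR test, and 7 did at an unadjusted p under 0.05. Over all 17812 genes tested, 63 differed from AID-TPR cells at an adjusted p under 0.05 by edgeR. The 95% interval of the difference then ran from 1.0 to 2.92 for CYP1A1, from 0.14 to 0.74 for TIPARP and from -0.25 to 0.28 for CLK3. Against AID-NXF1 cells 7 of the 14 still differed: OTUB2, CDKN1B, NEDD9, CYP1B1, MEGF6, TIPARP and EDC3. Over all 17812 genes tested, 2251 did. The counts of the 6 parental libraries were the same under both namings, and which naming is right was not tested.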

How the data were processed

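RNA was sequenced from 66 DLD-1 libraries, of which the 6 of the parental line are described; the 6 with Actinomycin D were not used, and 54 tagged libraries served for comparison. Per the labels and the study's methods, the authors sequenced rRNA-depleted total RNA, mapped reads to GRCh38 and deposited raw counts per Ensembl gene for 58051 genes, one file per library, without normalization. The submitters' processing notes name CASAVA 1.8.2, STAR 2.6.1c and featureCounts 1.5.2. The counting setting for strand is not given in the sources used here. The parental files have no counts on 37 mitochondrial genes and can count reads of overlapping genes more than once.

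Genes with over 1 CPM in more than 5% of the 60 libraries without Actinomycin D were tested (17812, holding at least 99.8% of each parental library's counts). Counts were normalised by TMM within each comparison and tested by edgeR 4.0.16 (quasi-likelihood, limma 3.58.1, R 4.3.3) with Benjamini-Hochberg adjustment. CPM values use the same TMM factors, and SE is the size of the log2 fold change over the square root of F. Symbols and positions are from GENCODE 44 (56948 IDs matched, 1103 not). DESeq2 1.42.0 was an alternative, and the test was tried on simulated data. Python 3.11.15, pandas 2.3.3 and matplotlib 3.10.9 made tables and figures.

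Named genes were all calls, members of fixed lists, genes within 250 kb of CYP1A1, TIPARP or CYP1B1, the 10 largest of the genes moving one way in all tagged lines, and the 5 largest uncalled differences each way with non-overlapping groups and a mean of at least 50 counts. RASSF10 and BDNF were named after their values were seen. 1 member of the list of AHR and its partners is not reported here. SNORA23 and ENSG00000280717 were also named after their values were seen. The members, lists and rules were chosen with earlier results of these data known. Replicate libraries of a group differed by more than counting noise (chi-square per degree of freedom 4.94 to 11.6), so none was counted as a duplicate.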

Additional observations from a re-analysis of the deposited data

Results flagged for a closer look

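For 10 genes the difference between the libraries labelled auxin and labelled untreated in parental cells departed, by the interaction term of edgeR at an adjusted p under 0.05, from the auxin difference in both AID-TPR and AID-NXF1 cells. The difference of log2 fold changes, parental minus AID-TPR, was -1.49 for PPP1R15A, -1.18 for OTUB2, -0.82 for DENND3, -1.80 for CYP1B1, -5.71 for CYP1A1, -2.63 for MEGF6, -3.09 for TIPARP, -0.99 for EDC3, -1.12 for CLK3 and -1.61 for CYP1B1-AS1. Against AID-NXF1 cells it was -1.39 for PPP1R15A, -0.86 for OTUB2, -0.65 for DENND3, -1.36 for CYP1B1, -6.44 for CYP1A1, -2.28 for MEGF6, -2.50 for TIPARP, -0.60 for EDC3, -1.19 for CLK3 and -1.73 for CYP1B1-AS1. In each case the parental value was below 0 and the tagged line's own value above 0. The genes were chosen for their difference in the same parental libraries, so a departure was partly fixed beforehand. The treatment names of the parental libraries differ between the file labels and Supplementary Data 2, and the sign of the parental value turns with them.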

How the results depend on the processing

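The 14 calls were 14 with RLE normalization, 14 with filterByExpr, 15 in one fit of 24 libraries, 10 when lower calls had to reach 0.7 of the untreated level, and 14 at any fold. DESeq2 called 39, all lower, with the 14 among them. Without a filter on low counts 78 were called, 75 lower and 3 higher. With each library left out in turn, 8 to 22 genes were called lower and 0 higher, down to 8 without untreated replicate 2 and 9 without the library labelled auxin replicate 2. The treatment names of Supplementary Data 2 turned the 14 lower and 0 higher into 0 lower and 14 higher. The interaction with AID-TPR cells gave 63 genes under those names, 131 with RLE normalization, and 50 to 95 with a parental library left out, against 147, falling by over 1.5 times for each of the 6 libraries left out. The interaction with AID-NXF1 cells gave 2251 under those names and 1270 to 1788 with a library left out, against 1729. The causes were not tested.

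With a replicate block, 79 genes were called, 75 lower and 4 higher, with the 14 among them; the interactions then gave 1341 genes for AID-TPR and 4136 for AID-NXF1 cells. Among the named genes the replicate block added 15 calls: FOS and EGR1, higher, and PRDM1, PROX1, TERT, LINC02029, BMF, CYP1A2, IER3, DDIT4, STMND1, ENSG00000234424, ADGRF1, HDAC2-AS2 and ALDH1A3, lower. The labels do not say that a number marks a shared culture or day. Residuals of same-numbered libraries correlated at 0.64, 0.063 and 0.531, so not all 3 pairs passed the bound of 0.1. Between libraries of unlike number the values ran from -0.595 to 0.067. Auxin replicate 2 correlated slightly better with untreated replicate 3 (0.067) than with its own number. Numbers 1 and 3 thus went together across the groups, and number 2 did not by this bound. The fit without the block was kept, so its 14 calls and its intervals take no account of the replicate number.

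Over 168 values of the 14 genes under the other settings and left-out libraries, the direction was the same in each, 147 were called and 21 were not. The one fit of 24 libraries lost DENND3, NEDD9, CDX2 and C15orf62. Of 1452 values of 121 other named genes, 47 became calls. EGR1, FOS and DDIT4 have wide intervals in the fit without the replicate block, and each was called with it. With 3 libraries a group, levels near 1 CPM rest on few counts.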
